A study of Homo sapiens with 6 samples.

Results

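Metallothioneins and the genes of the cellular zinc response were followed in cells labelled MHCC97-H, a human hepatocellular carcinoma line. The set holds 8 genes named by symbol and not by any measured value: 6 metallothionein genes (MT1E, MT1F, MT1G, MT1M, MT1X and MT2A), the zinc sensor MTF1 and the zinc exporter SLC30A1. All 8 were found among the 62710 genes of the count table, and 6 of them were among the 16877 genes that held enough counts to be tested. Polyadenylated RNA was sequenced from cells given 40 µM chloroquine (CQ) for 16 h, cells given 0.2 mM melatonin (MLT) for 16 h and untreated cells (labelled WT), with 2 libraries in each group. All 3 groups carry the same wild-type genotype and come from this single line. The series describes chloroquine as the agent against autophagy and melatonin as the agent against endoplasmic reticulum stress. No library is labelled as given solvent alone, so an agent and its solvent cannot be told apart. Nothing in the labels tells whether the libraries within a group are separate cultures, and p-values therefore measure only the spread between these libraries, which may be technical. For each gene that spread is mostly borrowed from other genes (23.6 prior degrees of freedom) and less from its own counts (3 residual degrees of freedom).

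Metallothioneins are small proteins in which cysteine makes up a large share of the residues, and their thiol groups bind zinc and copper. When free zinc in the cell rises, the zinc-finger protein MTF1 occupies metal response elements and activates the metallothionein genes together with SLC30A1, which carries zinc out across the plasma membrane. The liver is a main site of metallothionein synthesis, and zinc, copper, glucocorticoids and inflammatory signals are all known to raise these transcripts there.

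The 6 metallothionein genes lie together on the long arm of chromosome 16 in GRCh38 (GENCODE release 29). MT2A (ENSG00000125148) spans chr16:56608199-56609497, MT1E (ENSG00000169715) chr16:56625475-56627112, MT1M (ENSG00000205364) chr16:56632233-56633986, MT1F (ENSG00000198417) chr16:56657694-56660698 and MT1X (ENSG00000187193) chr16:56682424-56684196, all on the plus strand. MT1G (ENSG00000125144) spans chr16:56666731-56668065 on the minus strand. MTF1 (ENSG00000188786, chr1:37809567-37859620) and SLC30A1 (ENSG00000170385, chr1:211571568-211578742) are both on the minus strand of chromosome 1.

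The coding sequences are shown because their likeness bears on the counting of reads. They are those of the 4 metallothioneins with more than trace counts, in the GENCODE 29 annotation, 5′ to 3′ with the stop codon and with the cysteine codons in capitals.
MT2A: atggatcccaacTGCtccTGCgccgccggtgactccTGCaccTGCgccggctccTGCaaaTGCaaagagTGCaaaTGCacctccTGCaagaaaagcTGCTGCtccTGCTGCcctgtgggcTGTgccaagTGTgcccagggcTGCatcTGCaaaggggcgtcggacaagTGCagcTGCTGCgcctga
MT1X: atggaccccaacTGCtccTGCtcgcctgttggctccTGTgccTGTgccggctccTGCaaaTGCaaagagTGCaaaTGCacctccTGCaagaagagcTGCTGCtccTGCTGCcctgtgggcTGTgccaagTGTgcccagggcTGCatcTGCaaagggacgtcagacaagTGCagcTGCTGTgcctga
MT1E: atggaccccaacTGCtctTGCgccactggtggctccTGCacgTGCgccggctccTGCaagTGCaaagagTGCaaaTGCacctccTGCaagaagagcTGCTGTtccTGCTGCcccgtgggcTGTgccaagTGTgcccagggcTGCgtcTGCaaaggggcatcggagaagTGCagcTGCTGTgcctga
MT1F: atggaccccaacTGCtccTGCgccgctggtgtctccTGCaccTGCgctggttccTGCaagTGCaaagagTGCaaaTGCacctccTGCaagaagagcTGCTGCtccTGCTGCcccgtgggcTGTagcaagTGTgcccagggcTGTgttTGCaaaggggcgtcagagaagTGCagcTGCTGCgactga

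Each of the 6 metallothionein coding sequences, taken at the length that most of these genes share, has 186 bases with the stop codon and 61 codons, of which 20 encode cysteine. Identity between pairs ran from 88.7% (MT1F and MT1X) to 95.2% (MT1G and MT2A). Whole transcripts differ more. Of all stretches of 50 bases in annotated transcripts of MT2A, 97% occur in no other annotated gene, against 98.8% for MT1F, 92.9% for MT1E, 90.1% for MT1M, 83.5% for MT1G and 81.7% for MT1X. At 100 bases the share was 100% for MT1E, MT1F, MT1G, MT1M and MT2A and 88.7% for MT1X, which overlaps the non-coding gene AC026461.1 on the same strand. That gene had 0 counts in all 6 libraries, which does not tell how reads in the shared stretch were assigned. The sources used here give neither the read length nor the treatment of reads with several matches, so levels of single metallothioneins, MT1X most of all, are uncertain to that extent.

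Metal response elements share the core letters TGCACNC or TGCGCNC. The promoters of MT2A, MT1X and SLC30A1, from the RefSeq promoter table (GRCh38.p14), are shown because they hold such letters and MTF1 acts through these elements; the MTF1 promoter, also in that table, held none and is not printed. Each sequence is the stretch of 250 bases before the RefSeq transcript start, 5′ to 3′ on the gene's strand, with matches to either core on either strand in capitals.
MT2A, chr16:56608334-56608583, plus strand: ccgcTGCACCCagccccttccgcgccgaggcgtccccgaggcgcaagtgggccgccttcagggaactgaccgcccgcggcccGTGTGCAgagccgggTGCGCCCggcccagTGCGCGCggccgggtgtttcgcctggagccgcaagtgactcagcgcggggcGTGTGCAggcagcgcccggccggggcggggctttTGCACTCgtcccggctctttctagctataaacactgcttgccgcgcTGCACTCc
MT1X, chr16:56682220-56682469, plus strand: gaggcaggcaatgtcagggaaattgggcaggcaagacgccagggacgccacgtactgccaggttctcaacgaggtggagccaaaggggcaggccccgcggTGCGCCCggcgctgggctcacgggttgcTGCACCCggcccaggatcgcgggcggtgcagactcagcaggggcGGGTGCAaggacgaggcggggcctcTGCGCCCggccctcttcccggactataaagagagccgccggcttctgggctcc
SLC30A1, chr1:211579162-211579411, minus strand: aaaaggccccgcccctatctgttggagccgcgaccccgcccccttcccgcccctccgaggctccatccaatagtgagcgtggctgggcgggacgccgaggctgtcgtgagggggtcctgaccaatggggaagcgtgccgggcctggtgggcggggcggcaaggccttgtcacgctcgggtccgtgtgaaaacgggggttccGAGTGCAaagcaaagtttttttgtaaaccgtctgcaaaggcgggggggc

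MT2A held 7 matches, 5 on its own strand and 2 on the opposite strand, and 11 of 35116 promoter windows of this length (0.0313%) held at least as many. MT1X held 4, and 130 windows (0.37%) held at least as many, and SLC30A1 held 1 on the opposite strand, where 24.8% of all windows held at least 1. No match lay in the MTF1 window (chr1:37859593-37859842). MT1E, MT1F, MT1G and MT1M had no entry in that table. No matches overlapped. Matches in MT2A began between 246 and 8 bases before the start and those in MT1X between 150 and 53 bases before it. A match describes letters and does not show that a protein binds there. MT1H, a neighbouring metallothionein gene outside the set, held 8 matches and had 0 counts in every library. The window of MT2A lies inside the longer gene model of GENCODE 29, which starts further upstream. That of SLC30A1 lies upstream of its GENCODE 29 start (chr1:211578742) and does not reach it. The 250 bases directly before that GENCODE start were not searched.

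**Figure D1:**
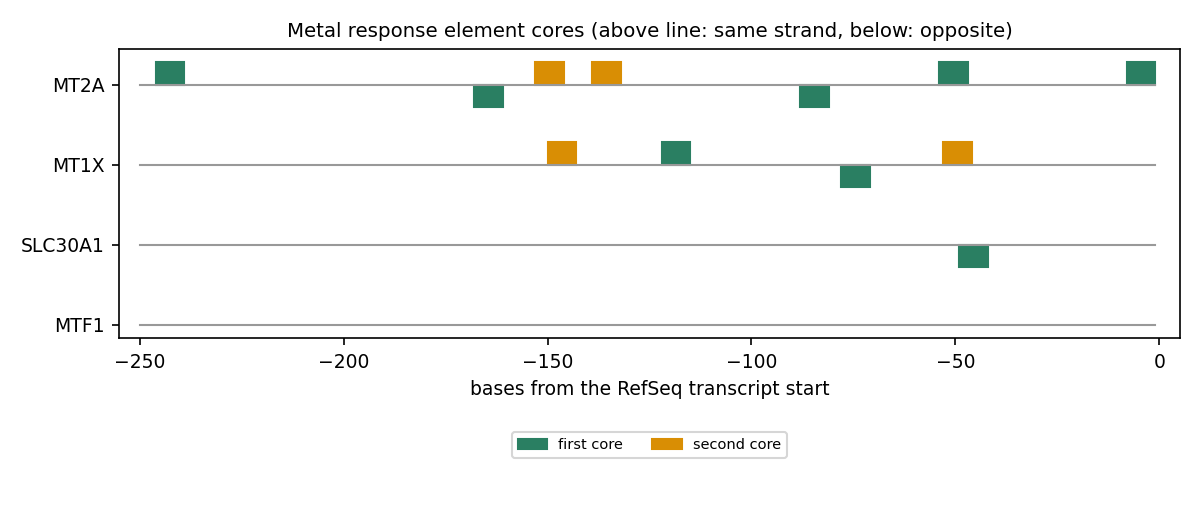
Positions of metal response element cores in the 250 bases before the RefSeq transcript start of MT2A, MT1X, SLC30A1 and MTF1; the horizontal axis gives bases from the start, boxes above a line are on the gene's strand and boxes below on the opposite strand. The first core is TGCACNC and the second TGCGCNC; MT2A holds 7 boxes, MT1X 4, SLC30A1 1 and MTF1 none.

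Library totals ran from 15993730 to 23311452 counts, and 33804 genes were counted at all. The limit that a count of 0 allows (3 counts) lay between 0.123 and 0.184 CPM (counts scaled to each library's normalised total), and covers counting error only. Libraries of a group differed by more than counting error over all genes, the chi-square divided by its degrees of freedom being 1.78 to 2.49. Hepatocyte markers were nearly silent. Of 8 such genes 1 was tested (HNF4A) and 2 were at 0 in every library, ALB (albumin) had 1 count and AFP (alpha-fetoprotein) 2 counts in all, and the sum of the list was at most 2.39 CPM. The list of 4 ductal markers, all tested, summed to 793 to 795 CPM with chloroquine, 407 to 414 CPM with melatonin and 936 to 992 CPM in untreated cells. KRT7 made up most of this sum (775 CPM with chloroquine, 397 CPM with melatonin and 945 CPM in untreated cells on average), KRT19 fell with both agents, EPCAM rose with chloroquine (12.5 CPM, against 9.06 CPM in untreated cells) and was not called with melatonin, and SOX9 was called with neither. The 3 epithelial markers summed to 1500 to 1540 CPM with chloroquine, 1060 to 1110 CPM with melatonin and 1990 to 2050 CPM in untreated cells. Endothelial markers (3 genes, 2 tested) summed to 6.16 to 6.31 CPM with chloroquine, 3.08 to 4.05 CPM with melatonin and 6.62 to 6.86 CPM in untreated cells. CDH5 among them fell with melatonin (log2 fold change -3.18, adjusted p = 3.04e-06 in edgeR), at 6 and 3 counts against 30 and 40 in untreated cells. PECAM1, the larger part of the sum, was not called with melatonin (-0.45, adjusted p = 0.0618). Fibroblast markers (4 genes, 2 tested) summed to 14.1 to 14.7 CPM with chloroquine, 17.3 to 18.9 CPM with melatonin and 14.3 to 17.2 CPM in untreated cells. With melatonin COL1A1 rose (0.29, adjusted p = 0.0224). DCN, at 11 and 7 counts against 19 and 24 in untreated cells, fell (-1.50, adjusted p = 0.0055). The hepatocyte markers summed to 1.34 to 1.97 CPM with chloroquine, 0.483 to 0.859 CPM with melatonin and 2.38 to 2.39 CPM in untreated cells. Most of the hepatocyte sum was HNF4A, at 14 and 6 counts with melatonin against 35 and 35 in untreated cells. HNF4A fell with melatonin (-2.06, adjusted p = 6.39e-05 in edgeR) and was not called with chloroquine. The ductal, epithelial, endothelial and hepatocyte sums of either agent lay apart from those of untreated cells. The fibroblast sum with chloroquine overlapped that of untreated cells. The part of these sums in the results was not tested. Leukocyte markers reached at most 0.664 CPM and red blood cell markers at most 0.0818 CPM.

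Per length, MT2A was on average the most abundant metallothionein and MT1F by far the lowest of those with enough counts to be tested. MT1G and MT1M had 0 counts in all 6 libraries, which allows up to 0.123 to 0.184 CPM depending on the library, so no comparison of them was possible at this depth. Per length of all exons, untreated cells held 72.6 ± 15.4 RPKM (CPM divided by exonic kilobases, SD, n = 2) of MT2A, 25.1 ± 0.713 of MT1E, 24.3 ± 2.63 of MT1X, 23.1 ± 0.836 of SLC30A1, 5.38 ± 0.152 of MTF1 and 1.12 ± 0.255 of MT1F. In this order the libraries of MT1E (25.6 and 24.6 RPKM) overlapped those of MT1X (26.1 and 22.4 RPKM), which overlapped those of SLC30A1 (23.6 and 22.5 RPKM). The place of MT1X depends on the length used. Divided by its coding transcript of 450 bases and not by its 1773 exonic bases, MT1X had 95.6 ± 10.4 RPKM in untreated cells, next to MT2A at 120 ± 25.5 RPKM and above MT1E at 37.5 ± 1.07 RPKM, a length chosen after seeing the data. By coding transcript length the untreated libraries of MT1X (103 and 88.3 RPKM) overlapped those of MT2A (138 and 102 RPKM).

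Over the whole family of 20 metallothionein genes and pseudogenes, 8 had a count and 4 were tested. All family members together held 3025 and 3025 counts in the chloroquine libraries, 5487 and 3583 in the melatonin libraries and 3006 and 2672 in the untreated libraries. This corresponds to 150 and 157 CPM with chloroquine, 224 and 217 CPM with melatonin and 184 and 148 CPM in untreated cells. The melatonin libraries stood above all others, and the chloroquine libraries lay within the range of the untreated ones. Of the 14 genes outside the set, MT1A had 1 count, MT1B 3 counts in untreated library 2, MT1XP1 3 counts and MT1P1 11 counts in all. MT1P1 is a pseudogene inside FANCC on the same strand, so its reads cannot be told apart from FANCC RNA. The highest level of any of the 14 in any library was 0.166 CPM, within the limits that a count of 0 allows.

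**Figure D2:**
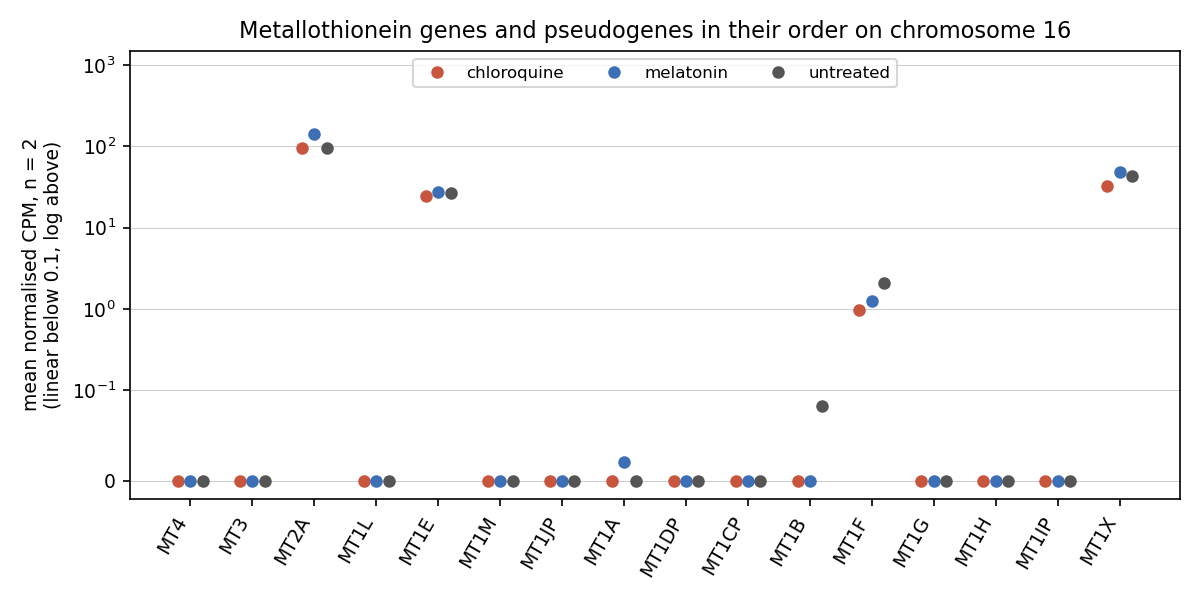
Mean normalised CPM (n = 2, log scale above 0.1 and linear below) of the metallothionein genes and pseudogenes on chromosome 16, in their order along the chromosome, for chloroquine, melatonin and untreated cells. Counts came from MT2A, MT1E, MT1F and MT1X, with traces of MT1A and MT1B, and the other genes of the cluster sit at 0.

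MT2A made up a larger share of the family in each treated library than in either untreated library. The share was 61.3% (95% interval 59.5 to 63.0%, exact binomial) and 62.9% (61.1 to 64.6%) in the chloroquine libraries, 64.6% (63.3 to 65.9%) and 65.9% (64.3 to 67.5%) in the melatonin libraries, and 58.9% (57.1 to 60.6%) and 54.2% (52.3 to 56.1%) in the untreated libraries. The intervals cover counting error only, those of the untreated libraries do not overlap each other, and that of untreated library 1 overlaps that of chloroquine library 1. With 2 libraries a group the difference in shares was not tested. MT1X took 21.5% and 21.2% with chloroquine, 20.9% and 22.5% with melatonin, and 25.1% and 26.9% in untreated cells. The ratio of MT2A to MT1X counts, which needs no scaling between libraries, was 2.86 and 2.96 with chloroquine, 3.10 and 2.93 with melatonin, and 2.34 and 2.02 in untreated cells. Both treated groups lay above the untreated libraries in this ratio. It shows unequal change of the 2 genes and not which of them changed. The treated groups share the untreated libraries, so they are not independent of each other.

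**Figure D3:**
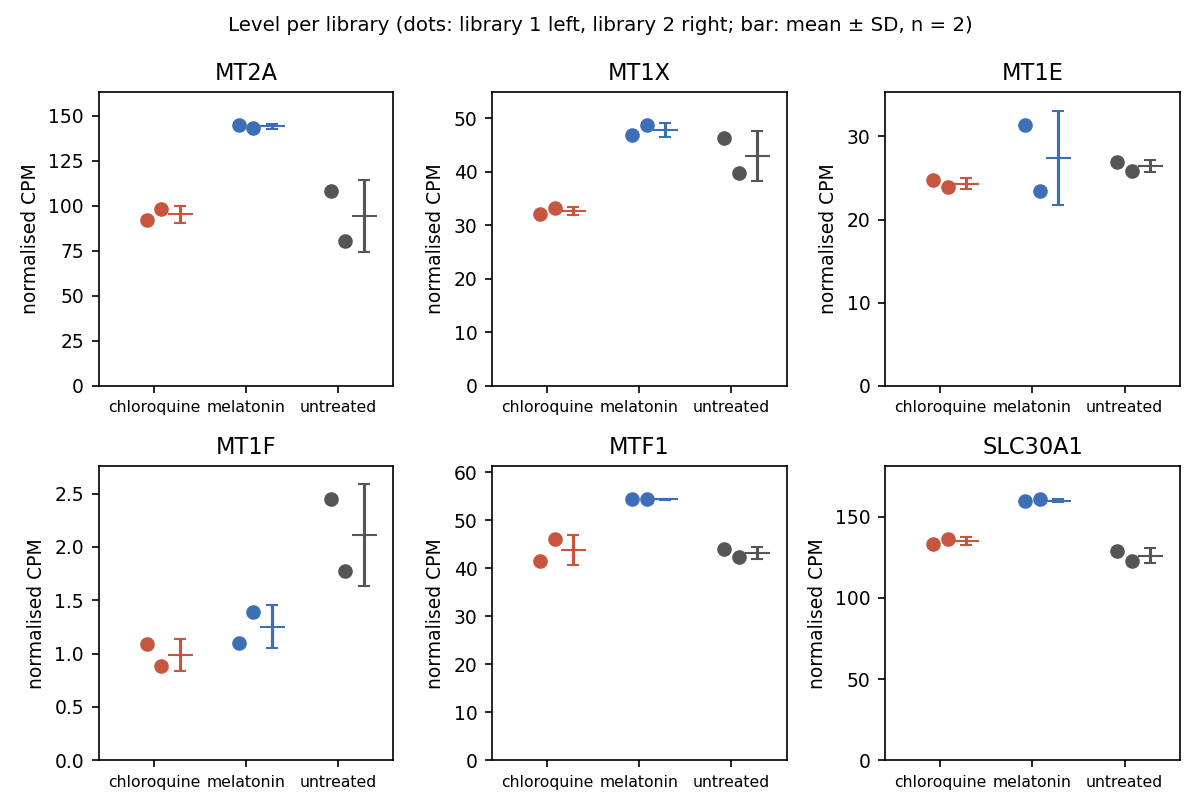
Normalised CPM of the 6 tested genes in each library (dots) with mean ± SD (n = 2) for chloroquine, melatonin and untreated cells, on axes from 0. MT2A, MTF1 and SLC30A1 are higher in both melatonin libraries than in any other library, MT1X is lower in both chloroquine libraries than in any other, and MT1E in melatonin library 1 stands above all other libraries.

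Melatonin was set against no treatment to ask which transcripts answer to an agent used against endoplasmic reticulum stress. MT2A, MTF1 and SLC30A1 rose, MT1F fell, and MT1X and MT1E did not pass the test. Of the 6 tested members 3 were called higher and 1 lower at an adjusted p under 0.05 (edgeR's quasi-likelihood test, Benjamini-Hochberg over all 16877 genes), while over all genes 52.0% were called, 25.5% higher and 26.5% lower. A call is therefore common in this comparison. The groups did not overlap in 5 of the 6 (4 higher, 1 lower), which held for 37.2% of all genes in the higher and 36.9% in the lower direction. The median log2 fold change of the 6 was 0.24, against 0.0053 over all genes. Without composition factors the median of all genes was at 0.10, and 5541 genes were called higher and 3434 lower, against 4307 and 4475 with them. In RNA of a whole culture, fewer cells that express a gene and less RNA per cell cannot be told apart.

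MT2A, the main metallothionein of these cells, had 145 and 143 CPM in the melatonin libraries, against 108 and 80.2 CPM in the untreated libraries. The groups did not overlap, and the untreated libraries stood further apart than the melatonin ones. The mean was 144 ± 1.56 CPM with melatonin and 94.3 ± 20.0 CPM in untreated cells (SD, n = 2), a log2 fold change of 0.61 ± 0.07 (SE, 95% interval 0.47 to 0.76, 1.53-fold, adjusted p = 2.88e-08). The size of the difference depended on the untreated library, with 0.84 without untreated library 1 and 0.40 without untreated library 2. Both values lie outside the 95% interval, which rests largely on the spread of other genes and does not cover that of these untreated libraries. DESeq2 gave a log2 fold change of 0.605 (adjusted p = 0.00259). With offsets that take out each library's trend with GC content and transcript length, the log2 fold change was 0.83.

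MTF1, the zinc sensor and transcription factor, had 54.3 and 54.4 CPM with melatonin, against 44.0 and 42.3 CPM in untreated cells. Its melatonin libraries were nearly equal and lay above every other library. The log2 fold change was 0.33 ± 0.07 (SE, 95% interval 0.20 to 0.47, adjusted p = 9.15e-05), or 0.21 (adjusted p = 0.00696) with the offsets. The counts are of MTF1 mRNA, and neither its protein nor its binding was measured.

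SLC30A1, the zinc exporter of the plasma membrane, had 160 and 161 CPM with melatonin, against 129 and 123 CPM in untreated cells. Again the melatonin libraries lay above all others and close to each other. The log2 fold change was 0.35 ± 0.04 (SE, 95% interval 0.26 to 0.43, adjusted p = 3.36e-08). With the GC and length offsets it was 0.12 (95% interval 0.03 to 0.20, adjusted p = 0.0188), smaller but still called. SLC30A1 has a long transcript of 5474 bases with 38.0% GC, and the trend of all genes at that length and GC content was 0.23 higher with melatonin than in untreated cells.

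The other 3 measured metallothioneins were not called higher. MT1X had 46.8 and 48.8 CPM with melatonin, against 46.3 and 39.7 CPM in untreated cells, groups that were separated by the narrow gap to untreated library 1 (log2 fold change 0.15, 95% interval 0.0037 to 0.30, adjusted p = 0.0803). It passed with the offsets (0.29), with library totals alone (0.25) and without untreated library 1 (0.26). MT1E had 31.4 and 23.4 CPM with melatonin, on either side of the 26.9 and 25.8 CPM of untreated cells (log2 fold change 0.08, 95% interval -0.13 to 0.28, adjusted p = 0.547). It passed at 0.25 without melatonin library 2 and at 0.30 with the offsets, and stood at -0.17 without a call when melatonin library 1 was left out. MT1F had 27 and 23 counts with melatonin (1.10 and 1.39 CPM), against 40 and 32 counts in untreated cells (2.45 and 1.77 CPM). It fell by 0.77 ± 0.32 (log2, SE, adjusted p = 0.0454), a call near the threshold that was lost without chloroquine library 1 (-0.78), either melatonin library (-0.59 without the first and -0.93 without the second) or untreated library 1 (-0.53), and with the offsets (-0.51).

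Chloroquine was set against no treatment to ask which transcripts answer to an agent used against autophagy. MT1X and MT1F fell, and MT2A, MT1E, MTF1 and SLC30A1 did not pass the test. Of the 6 tested members 0 were called higher and 2 lower in edgeR, against 20.2% of all genes called, 9.54% higher and 10.7% lower. The groups did not overlap in 4 of the 6 (1 higher, 3 lower), which held for 28.3% of all genes in the higher and 29.3% in the lower direction. The median log2 fold change of the 6 was -0.05, and -0.0029 over all genes.

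MT1X had 32.2 and 33.2 CPM in the chloroquine libraries, against 46.3 and 39.7 CPM in the untreated libraries. The groups did not overlap, and the chloroquine libraries were close to each other. The mean was 32.7 ± 0.71 CPM with chloroquine and 43.0 ± 4.67 CPM in untreated cells (SD, n = 2), a log2 fold change of -0.39 ± 0.08 (SE, 95% interval -0.55 to -0.24, 0.762-fold, adjusted p = 0.000353). It was called in each of the 15 alternatives run, between -0.50 and -0.28. MT1F, at the low end of what these libraries can measure, had 22 and 17 counts with chloroquine (1.09 and 0.88 CPM), against 40 and 32 counts in untreated cells. It fell by 1.08 ± 0.33 (log2, SE, adjusted p = 0.0206), and the call was lost without chloroquine library 1 (-1.25), chloroquine library 2 (-0.94) or untreated library 1 (-0.84) and with the offsets (-0.94).

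MT2A had 92.0 and 98.4 CPM with chloroquine, between the 108 and 80.2 CPM of untreated cells. Its log2 fold change was 0.02 (95% interval -0.13 to 0.17, adjusted p = 0.904). This value rests on the spread of the untreated libraries: against untreated library 2 alone it was 0.25 (adjusted p = 0.00171) and against untreated library 1 alone -0.19 (adjusted p = 0.0183), both past the threshold in opposite directions. No direction can be given for MT2A with chloroquine. MT1E had 24.8 and 23.9 CPM with chloroquine, against 26.9 and 25.8 CPM in untreated cells, groups that did not overlap (log2 fold change -0.12, 95% interval -0.32 to 0.09, adjusted p = 0.472). MTF1 had 41.5 and 46.0 CPM with chloroquine, on either side of the 44.0 and 42.3 CPM of untreated cells (0.02, 95% interval -0.12 to 0.16, adjusted p = 0.880). SLC30A1 had 133 and 136 CPM with chloroquine, above the 129 and 123 CPM of untreated cells by a log2 fold change of 0.09 (95% interval 0.0086 to 0.18, adjusted p = 0.117), which was -0.04 (adjusted p = 0.616) with the offsets. For MT2A and MTF1 these intervals include small differences in either direction.

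**Figure D4:**
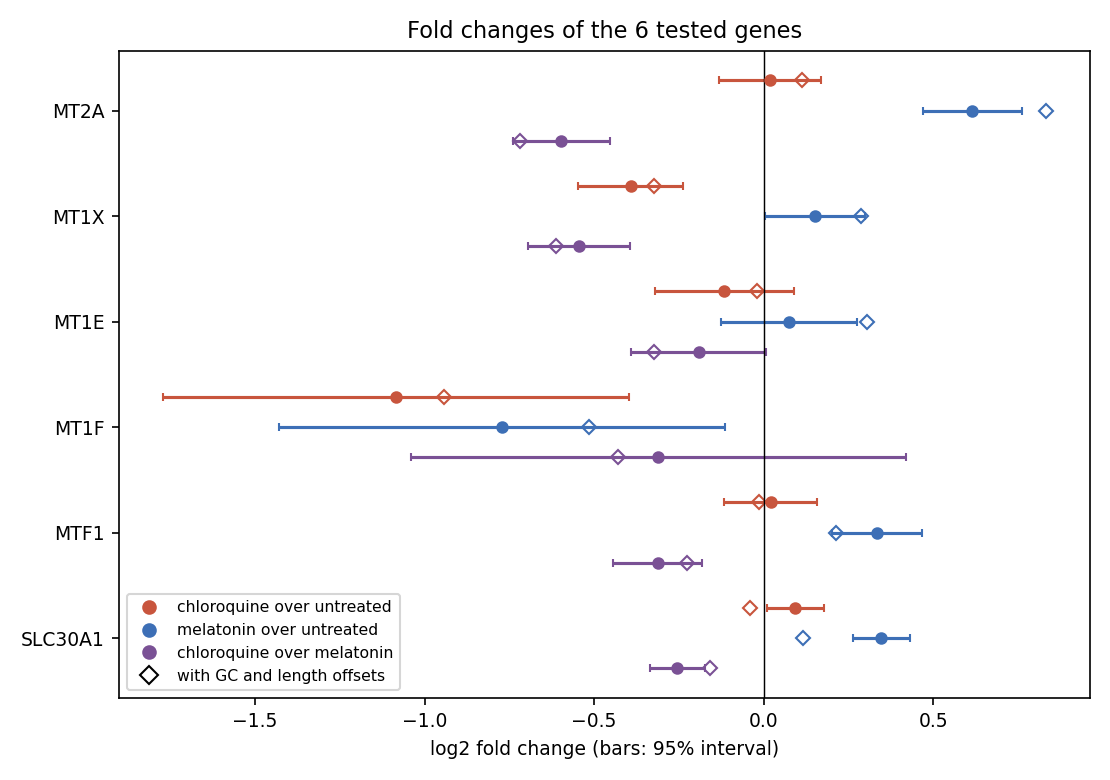
Log2 fold changes of the 6 tested genes with 95% intervals (filled dots) for chloroquine over untreated, melatonin over untreated and chloroquine over melatonin, and the same fold changes with GC and length offsets (open diamonds). With melatonin MT2A stands at 0.61 and SLC30A1 at 0.35, or 0.83 and 0.12 with the offsets, and for chloroquine over melatonin all 6 dots lie below 0.

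The direct comparison of chloroquine with melatonin tests whether the responses to the agents differ. Of the 6 tested members 0 were called higher and 4 lower in edgeR, against 47.0% of all genes called, 23.9% higher and 23.1% lower, and their median log2 fold change was -0.31 against -0.0039 over all genes. The groups did not overlap in 5 of the 6 (0 higher, 5 lower), which held for 35.7% of all genes in the higher and 36.1% in the lower direction. Library totals alone gave 2952 genes higher and 5177 lower, against 4041 and 3892 with composition factors. MT2A differed by -0.60 ± 0.07 (SE, adjusted p = 4.85e-08), with 92.0 and 98.4 CPM in the chloroquine libraries and 145 and 143 CPM in the melatonin libraries. MT1X differed by -0.54 ± 0.07 (adjusted p = 5.36e-07), MTF1 by -0.31 ± 0.06 (adjusted p = 0.00019) and SLC30A1 by -0.25 ± 0.04 (adjusted p = 4.91e-06). In all 4 genes both chloroquine libraries lay below both melatonin libraries. With the offsets SLC30A1 was at -0.16 and still called. MT1F (-0.31, 95% interval -1.04 to 0.42, adjusted p = 0.506) and MT1E (-0.19, 95% interval -0.39 to 0.0075, adjusted p = 0.109) did not pass, although MT1E was called at -0.37 without melatonin library 2, at -0.28 with library totals alone and at -0.32 with the offsets, and stood at 0.05 without melatonin library 1.

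Transporters of the SLC30 family move zinc out of the cytosol, most of them into vesicles or organelles. Of the 10 other exporters of the list 6 were tested, and 4 rose and 0 fell with melatonin, with a median log2 fold change of 0.21. Over all genes 25.5% were called higher and 26.5% lower with melatonin, 9.54% and 10.7% with chloroquine, and 23.9% and 23.1% for chloroquine over melatonin. SLC30A4, which loads zinc into vesicles, had 9.53 and 8.16 CPM with melatonin, against 4.23 and 4.70 CPM in untreated cells, and rose by 0.99 ± 0.16 (log2, SE, adjusted p = 6.8e-06). Its melatonin libraries lay above all others, and with the offsets it stood at 0.77 and was called. SLC30A5 (0.21), SLC30A6 (0.19) and SLC30A7 (0.29), which serve the secretory pathway, also passed with melatonin but stood at 0.04, -0.03 and 0.00096 with the offsets, where none of them was called. SLC30A6 was also lost in DESeq2 and without melatonin library 2 (0.19) or untreated library 2 (0.10). With the offsets 1 exporter was called higher and 1 lower. With chloroquine 1 exporter rose and 0 fell, SLC30A7, with 54.8 and 58.2 CPM against 50.3 and 47.8 CPM in untreated cells (0.21, adjusted p = 0.0139), a call lost with the offsets (0.05), in DESeq2, without chloroquine library 2 (0.16) or without untreated library 2 (0.17). Without untreated library 1, 2 exporters were called, SLC30A6 (0.24) among them. Between chloroquine and melatonin, SLC30A4 differed by -1.21 ± 0.16 (adjusted p = 4.01e-07) and SLC30A5 by -0.12 (adjusted p = 0.0140), and 0 of the 6 were higher. The number called lower was 4 with library totals alone and 1 with the offsets, in DESeq2, with no count filter, without chloroquine library 2 or without melatonin library 2.

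The SLC39 family moves zinc into the cytosol from outside the cell or from organelles. Of its 14 genes 11 were tested, and with melatonin 1 rose and 5 fell (median log2 fold change -0.22), while with chloroquine 0 rose and 0 fell in edgeR, where library totals alone, a minimum mean count of 50, a fit of the 2 groups, the offsets or leaving out untreated library 2 called 1 higher. With melatonin 25.5% of all genes were called higher and 26.5% lower, and with chloroquine 9.54% and 10.7%. For chloroquine over melatonin the shares were 23.9% and 23.1%. SLC39A10, an importer of the plasma membrane, had 60.4 and 59.8 CPM with melatonin, against 118 and 122 CPM in untreated cells. It fell by 0.998 ± 0.05 (log2, SE, adjusted p = 3.01e-16), was at -1.24 with the offsets, and had 121 and 126 CPM with chloroquine. SLC39A8, which also carries manganese and cadmium, had 99.2 and 99.7 CPM with melatonin and 123 and 122 CPM in untreated cells (-0.30, adjusted p = 5.27e-07). SLC39A7, which releases zinc from the endoplasmic reticulum, had 105 and 99.5 CPM with melatonin, against 127 and 117 CPM in untreated cells (-0.25, adjusted p = 3.33e-05), with -0.155 with library totals alone, and lost its call with the offsets (-0.09). SLC39A9 was the member that rose, with 123 and 128 CPM with melatonin and 98.4 and 103 CPM in untreated cells (0.31, adjusted p = 1.19e-06, 0.18 with the offsets). The number that rose was 3 with library totals alone and 2 with the offsets. Between chloroquine and melatonin 5 importers were higher and 1 lower, SLC39A10 among the higher at 1.03 ± 0.04 (adjusted p = 1.33e-16). The numbers were 3 higher without melatonin library 1 and 3 lower with library totals alone.

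**Figure D5:**
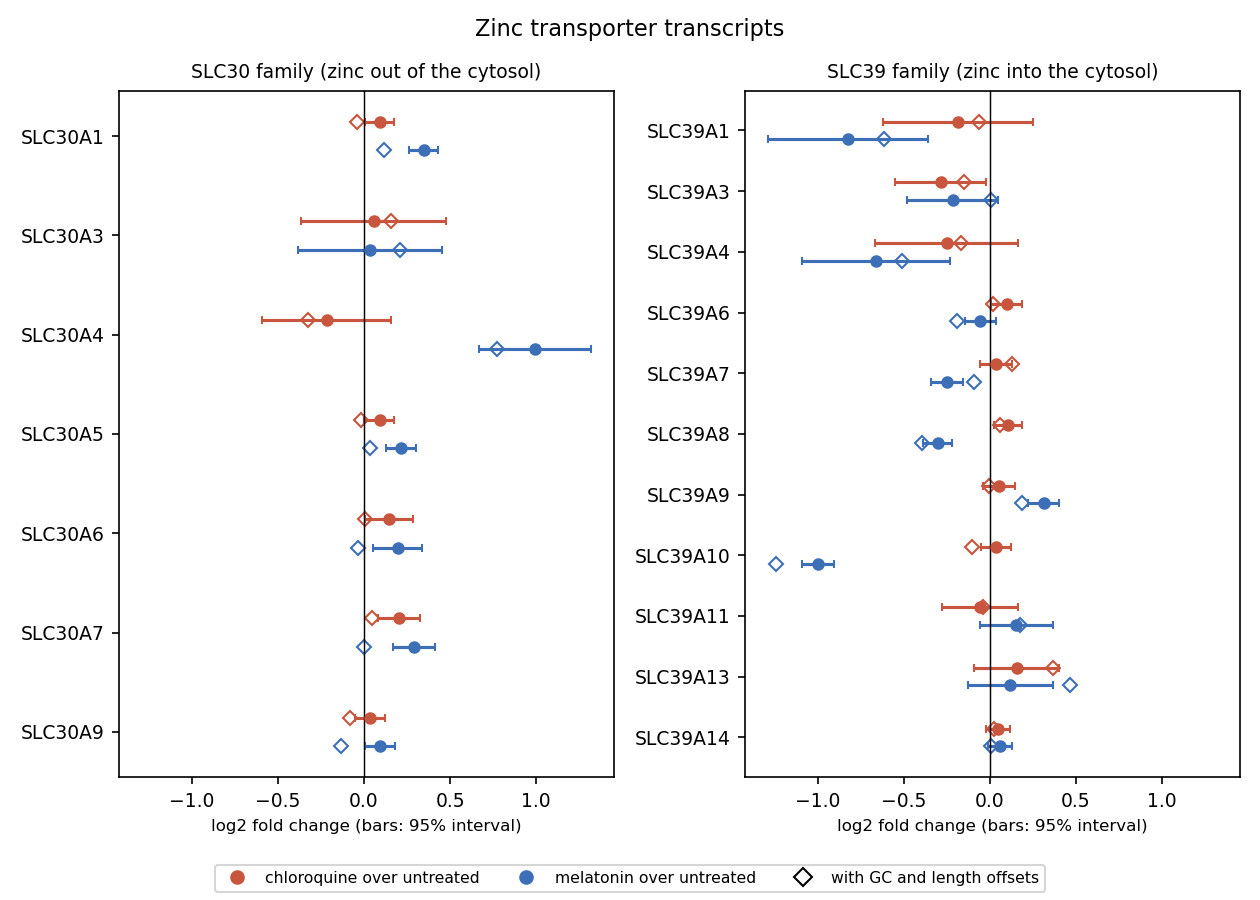
Log2 fold changes with 95% intervals (filled dots) and with GC and length offsets (open diamonds) of the tested SLC30 and SLC39 zinc transporter genes, for chloroquine over untreated and melatonin over untreated. With melatonin SLC39A10 stands at -0.998 and SLC30A4 at 0.99, and the diamonds of SLC30A5, SLC30A6 and SLC30A7 lie near 0.

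Copper is the other metal that metallothioneins bind in quantity. Of 12 genes of copper handling 10 were tested, and 2 rose and 1 fell with melatonin (median log2 fold change 0.10), while 1 rose and 0 fell with chloroquine. The shares of all genes called higher and lower were 25.5% and 26.5% with melatonin and 9.54% and 10.7% with chloroquine. For chloroquine over melatonin 1 of the 10 was higher and 6 were lower (median log2 fold change -0.18). Over all genes 23.9% were higher and 23.1% lower there. SLC31A1, the copper importer, had 117 and 115 CPM with melatonin, against 96.9 and 91.3 CPM in untreated cells (0.30, adjusted p = 1.37e-06, 0.195 with the offsets). ATOX1, a copper chaperone, was at 0.45 (adjusted p = 0.00349, 0.21 and not called without untreated library 2, 0.69 without untreated library 1), and SCO1, which delivers copper to cytochrome c oxidase, fell by 0.26 (adjusted p = 5.16e-05), with -0.41 under the offsets and -0.17 with library totals alone. The number called higher with melatonin was 4 with the offsets, 5 among genes with a mean count of at least 50, 7 with library totals alone and 1 without untreated library 2. COX11 was the gene called with chloroquine (0.14, adjusted p = 0.0302), and it lost its call in DESeq2, with the offsets, and without chloroquine library 1 (0.13), chloroquine library 2 (0.15) or untreated library 1 (0.11). The number called higher with chloroquine was 2 with library totals alone, a minimum mean count of 50, a fit of the 2 groups or without either melatonin library, and 1 gene was called lower with the offsets or without untreated library 2.

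Genes beside the metallothionein cluster on chromosome 16 moved in both directions. Of 8 neighbours, all tested, 4 rose and 3 fell with melatonin (median log2 fold change 0.08), and 0 rose and 2 fell with chloroquine. Among all genes, 25.5% rose and 26.5% fell with melatonin, and 9.54% rose and 10.7% fell with chloroquine. SLC12A3, a sodium-chloride cotransporter, had 324 and 325 CPM with chloroquine, 140 and 126 CPM with melatonin and 462 and 483 CPM in untreated cells. It fell by 0.54 ± 0.04 with chloroquine (adjusted p = 4.17e-11) and by 1.82 ± 0.04 with melatonin (adjusted p = 1.58e-22). The chloroquine libraries lay between the melatonin and the untreated ones. NUDT21 (-0.38) and NUP93 (-0.33) fell and HERPUD1, a gene of endoplasmic reticulum quality control, rose (0.40) with melatonin, and these 3 were not called with chloroquine. NUDT21 was at -0.60 with the offsets. HERPUD1 with chloroquine was at 0.14 (adjusted p = 0.0503), and it was called with library totals alone, with a minimum mean count of 50 and without melatonin library 2, so that 1 neighbour was higher there. GNAO1, the other gene that fell with chloroquine (-0.21, adjusted p = 0.0224), was named after its value was seen; 1 neighbour was called lower with the offsets, in DESeq2, and without chloroquine library 1, chloroquine library 2 or untreated library 2.

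Other genes known to respond to metals or protein damage moved in both directions. Of 10 such genes, all tested, 2 rose and 5 fell with melatonin (median log2 fold change -0.18), and 4 rose and 3 fell with chloroquine. Calls over all genes were 25.5% higher and 26.5% lower with melatonin, and 9.54% and 10.7% with chloroquine. HMOX1, heme oxygenase, had 102 and 90.4 CPM with chloroquine, 31.0 and 32.1 CPM with melatonin and 81.6 and 79.8 CPM in untreated cells. It rose by 0.25 with chloroquine (adjusted p = 0.00105, lost without chloroquine library 1 at 0.16, and 0.39 with the offsets) and fell by 1.36 ± 0.06 with melatonin (adjusted p = 2.65e-16). HSPA1A, a heat shock protein gene whose near-identical copy HSPA1B makes its counts uncertain, fell by 0.42 with chloroquine and by 0.73 with melatonin (-0.25 and -0.45 with the offsets). SLC7A11, the cystine transporter, and TXNRD1, thioredoxin reductase, rose with melatonin by 1.60 and 0.40. With chloroquine they stood at 0.36 (0.20 with the offsets) and 0.12, both called, and TXNRD1 lost that call with the offsets (0.07) and without chloroquine library 1 (0.14), chloroquine library 2 (0.10) or untreated library 1 (0.09). The number called higher with chloroquine was 1 without chloroquine library 1, and 2 without chloroquine library 2, without untreated library 1 or with the offsets.

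Glucocorticoids also raise metallothionein transcripts. Of 10 glucocorticoid-responsive genes 9 were tested, and 3 rose and 2 fell with melatonin (median log2 fold change 0.07), while 3 rose and 0 fell with chloroquine. The shares over all genes were 25.5% higher and 26.5% lower with melatonin, and 9.54% and 10.7% with chloroquine. FKBP5, a chaperone of the receptor, had 73.9 and 74.6 CPM with melatonin, against 57.7 and 55.4 CPM in untreated cells (0.39, adjusted p = 5.28e-07, 0.20 with the offsets), and was at 0.03 with chloroquine. DUSP1, a phosphatase of MAP kinases, rose by 0.29 with chloroquine and by 0.87 with melatonin, and its call with chloroquine was lost without chloroquine library 1 (0.27) or untreated library 2 (0.17). The number that rose with melatonin was 6 with library totals alone, and 1 gene fell with chloroquine without untreated library 2. KLF9 fell by 0.48 with melatonin (adjusted p = 3.81e-07). ERRFI1, a feedback inhibitor of the EGF receptor, had 160 and 176 CPM with chloroquine, 141 and 142 CPM with melatonin and 141 and 93.4 CPM in untreated cells. It rose by 0.52 with chloroquine and by 0.28 with melatonin, and both calls were lost in DESeq2. The value with chloroquine was 0.85 without untreated library 1 and 0.25 without untreated library 2. The value with melatonin lost its call with the offsets (0.20), and stood at -0.0066 without untreated library 2 and at 0.60 without untreated library 1. These lists were chosen with results of these data known, and their counts stand beside the shares of all genes called that were given for each comparison. Counts under other settings have totals of their own. With melatonin, library totals alone called 5541 of 16877 genes higher and the offsets 3936. The fit at a mean count of at least 50 called 3993 of 12302 higher.

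The genes whose profile over the 6 libraries lay closest to that of MT2A were MPC1, TATDN3, RETREG1, PXK and PROCA1. Likeness was measured as the root mean square difference of log2 CPM, centred on the untreated libraries, among the 11546 tested genes whose average log2 CPM reached 2, and the median gene lay 0.412 from MT2A. MPC1, a subunit of the mitochondrial pyruvate carrier, lay 0.0622 away, with 16.0 and 16.0 CPM with chloroquine, 22.5 and 22.7 CPM with melatonin and 17.0 and 12.7 CPM in untreated cells. TATDN3 lay 0.0731, RETREG1, a receptor for autophagy of the endoplasmic reticulum, 0.0751, PXK 0.0752 and PROCA1 0.0815 away. In all 5, as in MT2A, untreated library 1 stood above untreated library 2. Within the set SLC30A1 (0.196) and MTF1 (0.202) lay nearer to MT2A than MT1X (0.370), MT1E (0.384) and MT1F (0.985) did. This is a description over 6 libraries that share their depth and scaling, with genes picked for likeness.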

How the data were processed

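The authors deposited whole-number counts of reads per Ensembl gene, named as featureCounts output, for 6 libraries of polyadenylated RNA (TruSeq kit, per the labels' protocols). Reads were trimmed with fastp and GRCh38 was used, per the submitters' processing notes. The aligner, annotation release, strand setting, read length and treatment of multi-mapped reads: not given in the sources used here. Without strand, reads of a gene and its antisense partner cannot be told apart.

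The fit used edgeR 4.0.16 under R 4.3.3 (filterByExpr, TMM factors, glmQLFit and glmQLFTest over all 6 libraries with 1 term per group, 3 residual and 23.6 prior degrees of freedom, common biological coefficient of variation 0.0315). A call means an adjusted p (Benjamini-Hochberg, 16877 genes) under 0.05. Each SE was taken from the F statistic. Steps were tested on simulated data. Library totals from 15993730 to 23311452 set the precision. Symbols were matched for 62639 of 62710 genes, and positions come from GENCODE 29. RPKM were computed from normalised CPM and exonic length. GC content for the offsets was known for 96.6% of tested genes (local regression, span 0.3, on 12627 genes).

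The members and lists were chosen with earlier results of these data known. The text names all 8 members, 4 genes of each further list with the smallest p in either comparison with untreated cells, and 5 genes closest in profile to MT2A; other metallothionein genes with a count, MT1H, markers, GNAO1, HSPA1B and the overlapping genes AC026461.1 and FANCC were named after their values were seen. Groups follow the labels. Alternatives were RLE factors, library totals only, DESeq2 1.42.0, a minimum mean count of 50, no count filter, fits of 2 groups, the replicate number as a block, GC and length offsets and each library left out. The block with offsets and the coding transcript length were added after seeing the data. Deviations of equally numbered libraries had correlations of -0.0168, -0.00876 and -0.0405 between groups, so numbers were not taken as pairs.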

Additional observations from a re-analysis of the deposited data

How the results depend on the processing

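Of 18 member results (6 genes in 3 comparisons), 12 kept their call or its absence in every alternative run, among them MT2A, MTF1 and SLC30A1 with melatonin (ranges 0.40 to 0.84, 0.21 to 0.43 and 0.12 to 0.44) and MT1X with chloroquine (-0.50 to -0.28). The replicate number as a block gave 3436, 8731 and 7878 called genes (chloroquine over untreated, melatonin over untreated, chloroquine over melatonin), against 3413, 8782 and 7933 without it, and changed no member's call. Genes called for chloroquine over untreated numbered 2025 in DESeq2, 1826 with GC and length offsets, 1865 with block and offsets, and 1974 to 3732 with each library left out (2249 without chloroquine library 1 and 1974 without library 2). MT1F with chloroquine lost its call with offsets (-0.944) and with block and offsets (-0.946), and ranged from -1.31 to -0.836 with single libraries left out; DESeq2 gave no adjusted p for it. MT1F with melatonin lost its call with library totals only (-0.677), offsets (-0.514), block and offsets (-0.52) and DESeq2 (-0.773), with a range of -1.0 to -0.533 over libraries left out. It did not enter the fit at a mean count of at least 50. With offsets, and with block and offsets, calls were gained by MT1E with melatonin (0.304 and 0.288), MT1X with melatonin (0.288 and 0.287) and MT1E in chloroquine over melatonin (-0.324 and -0.311). Library totals only also called MT1X (0.247) and MT1E in chloroquine over melatonin (-0.283). With single libraries left out these ranged from -0.167 to 0.247, from 0.0332 to 0.257 and from -0.365 to 0.051. MT2A with chloroquine ranged from -0.188 to 0.25 and was called at both ends. The cause of these changes was not tested. Of 720 values of the genes named from other lists, 670 kept their call or its absence, 32 lost and 15 gained a call, and 3 values of called genes turned. A further 21 uncalled values changed sign, and 649 kept both sign and call. The called ones that turned were SLC30A6 with melatonin (-0.0334 with offsets, -0.0357 with block and offsets) and ERRFI1 with melatonin (-0.00663 without untreated library 2). Without untreated library 1 ERRFI1 kept its sign, at 0.595. With 2 libraries a group no p rests on more than 3 residual degrees of freedom of its own, a left-out library leaves a group of 1 that is assumed to vary like the others, and MT1F at 17 to 40 counts is limited by depth.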
